A study of Mus musculus with 8 samples.

Results

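The interferon-stimulated antiviral genes are a set of 44 mouse genes whose transcripts are induced by interferon and whose products sense, mark or block viruses. They were chosen by gene symbol and known function, with earlier results of these data known. Counts of members beside shares of all genes are therefore descriptions without a test. Every probe on the array that the platform annotation assigns to one of these symbols was taken. Of the 44 members, 42 had at least 1 probe, 69 probes in all, among the 25697 probes and 16593 gene symbols of the array. Ifi44 and Ifi203 had none. The cells were primary vascular smooth muscle cells of the carotid artery of male mice with a C57bl6 background. All of them carried a knockout of PMCA4, a pump that moves calcium out of the cell and is encoded by Atp2b4. The 4 knockout arrays held these cells as they were, and the 4 rescued arrays held knockout cells electroporated with a cDNA of the splice form PMCA4a. Both groups were serum synchronized, stimulated with serum and PDGF-BB (a platelet-derived growth factor), and harvested in late G1/S of the cell cycle. No knockout cells electroporated without PMCA4a were analysed here, so electroporation and PMCA4a cannot be told apart. The promoter driving the cDNA, the age of the mice and whether cells of several animals were pooled are not given in the sources. Nothing in the labels tells whether the 4 replicates of a group are separate cultures or mice. The p-values therefore cover the spread among these arrays alone, and that spread may be technical.

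Type I interferons bind a receptor on the cell surface whose JAK kinases phosphorylate transcription factors of the STAT family. A complex that contains STAT2 and IRF9 then binds the interferon-stimulated response element (ISRE) in the promoters of antiviral genes. Interferon gamma acts through a different element, the gamma-activated site (GAS). The products include sensors of foreign RNA, enzymes that trigger RNA decay, a ubiquitin-like tag, and proteins that hold viruses at the membrane, and many cells also keep a low level of these transcripts without infection.

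The promoters of 5 members are shown because these members fell in rescued cells and their windows differ in whether they hold the ISRE core. Each window runs from 250 bases before the transcription start to 50 bases from it, in the direction of the gene, as given by RefSeq for GRCm38.p6. Capitals mark matches to the core, which is GAAA, any 2 bases and GAAA again, or on the other strand TTTC, any 2 bases and TTTC, and overlapping matches run together.
Isg15, GRCm38.p6 chr4:156200769-156201068, minus strand: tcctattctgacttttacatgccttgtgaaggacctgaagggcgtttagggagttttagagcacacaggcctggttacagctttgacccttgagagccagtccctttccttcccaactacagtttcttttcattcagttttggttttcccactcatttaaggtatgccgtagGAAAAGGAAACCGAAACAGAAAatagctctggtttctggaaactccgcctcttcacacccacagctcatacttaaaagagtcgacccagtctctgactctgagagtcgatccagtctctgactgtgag
Oas1g, GRCm38.p6 chr5:120887564-120887863, minus strand: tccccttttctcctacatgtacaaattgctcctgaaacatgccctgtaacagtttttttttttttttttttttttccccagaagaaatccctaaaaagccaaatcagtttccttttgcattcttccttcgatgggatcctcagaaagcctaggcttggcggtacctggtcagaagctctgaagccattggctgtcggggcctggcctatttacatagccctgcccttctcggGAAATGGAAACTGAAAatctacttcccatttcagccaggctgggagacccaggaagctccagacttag
Ifit3, GRCm38.p6 chr19:34583279-34583578, plus strand: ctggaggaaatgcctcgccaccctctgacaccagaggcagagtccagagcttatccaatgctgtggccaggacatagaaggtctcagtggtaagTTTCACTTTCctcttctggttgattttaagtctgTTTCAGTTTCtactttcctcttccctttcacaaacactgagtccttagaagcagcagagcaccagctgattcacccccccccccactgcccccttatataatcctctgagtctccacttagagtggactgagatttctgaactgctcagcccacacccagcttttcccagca
Rsad2, GRCm38.p6 chr12:26456403-26456702, minus strand: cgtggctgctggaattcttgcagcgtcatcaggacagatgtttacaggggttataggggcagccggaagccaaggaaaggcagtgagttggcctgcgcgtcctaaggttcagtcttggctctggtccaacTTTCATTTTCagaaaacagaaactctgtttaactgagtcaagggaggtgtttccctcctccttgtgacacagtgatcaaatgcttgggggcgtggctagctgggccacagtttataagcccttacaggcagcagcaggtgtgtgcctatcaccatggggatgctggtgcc
Oasl2, GRCm38.p6 chr5:114896684-114896983, plus strand: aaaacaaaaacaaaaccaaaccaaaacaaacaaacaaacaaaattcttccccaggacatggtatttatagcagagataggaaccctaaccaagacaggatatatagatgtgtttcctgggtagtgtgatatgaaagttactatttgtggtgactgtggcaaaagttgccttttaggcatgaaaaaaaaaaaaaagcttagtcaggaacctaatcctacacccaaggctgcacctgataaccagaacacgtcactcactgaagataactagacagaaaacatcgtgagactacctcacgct
Isg15 held 3 overlapping matches that begin at positions -78, -72 and -66 from the start, and Oas1g held 2 overlapping matches at -18 and -12. Ifit3 held matches at -156 and -122 and Rsad2 at -120, while the Oasl2 window held none. Of 32851 promoter windows in the RefSeq table, 3.44% held a match, and of 27025 genes 3.99% had a window with one. The table held 32 of the members, and 16 of them had a match. These were 8 of 15 members that fell, 2 of 6 that rose or did not pass the test, and 6 of 11 that were not measured or had no probe. The GAS letters TTCNNNGAA, a palindrome, were in 9.55% of genes and in 10 of the 32 members, namely 4 of 15, 5 of 6 and 1 of 11 in the same order. A match is a run of letters, and binding was not measured.

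Antiviral transcripts were mostly lower in rescued than in knockout cells. Of the 28 members measured, 20 fell, 1 rose (Isg20) and 7 did not pass the test. Among all 8633 genes measured, 18.9% fell and 21.0% rose. The members that fell furthest were Isg15, a ubiquitin-like antiviral tag, by 8.27-fold, Oas1g, an oligoadenylate synthetase, by 4.71-fold, Oasl2, by 3.69-fold, and Usp18, the protease that removes ISG15 from proteins, by 3.35-fold. In bulk RNA, fewer cells expressing a gene and less of its RNA per cell cannot be told apart. Levels are background-corrected, quantile-normalized log2 intensities, and a difference is rescued minus knockout on that scale. A gene was measured if a probe was detected on at least 4 of 8 arrays, and a change is an adjusted p under 0.05 in limma with Benjamini-Hochberg adjustment over 12658 probes.

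The median difference over the 28 measured members was -0.71, a 1.64-fold lower level, against 0.01 over all genes. The members ranged from -3.05 for Isg15 to 0.62 for Isg20, and 25 of the 28 differences were negative. At least 2-fold lower levels were found for 11 of the 28 members, or 39.3%, against 3.02% of all genes. All knockout arrays lay above all rescued arrays for 19 members, or 67.9%, against 19.3% of all genes, and below them for 1 member against 21.6%. Counted by probe, 28 of the 42 member probes kept fell, where 18.7% of all probes fell. None of the 9 members with several measured probes had probes that passed in opposite directions. No member was measured through the arrays of 1 group alone, although Rsad2 was detected on 4 knockout arrays and only 1 rescued array.

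**Figure D1:**
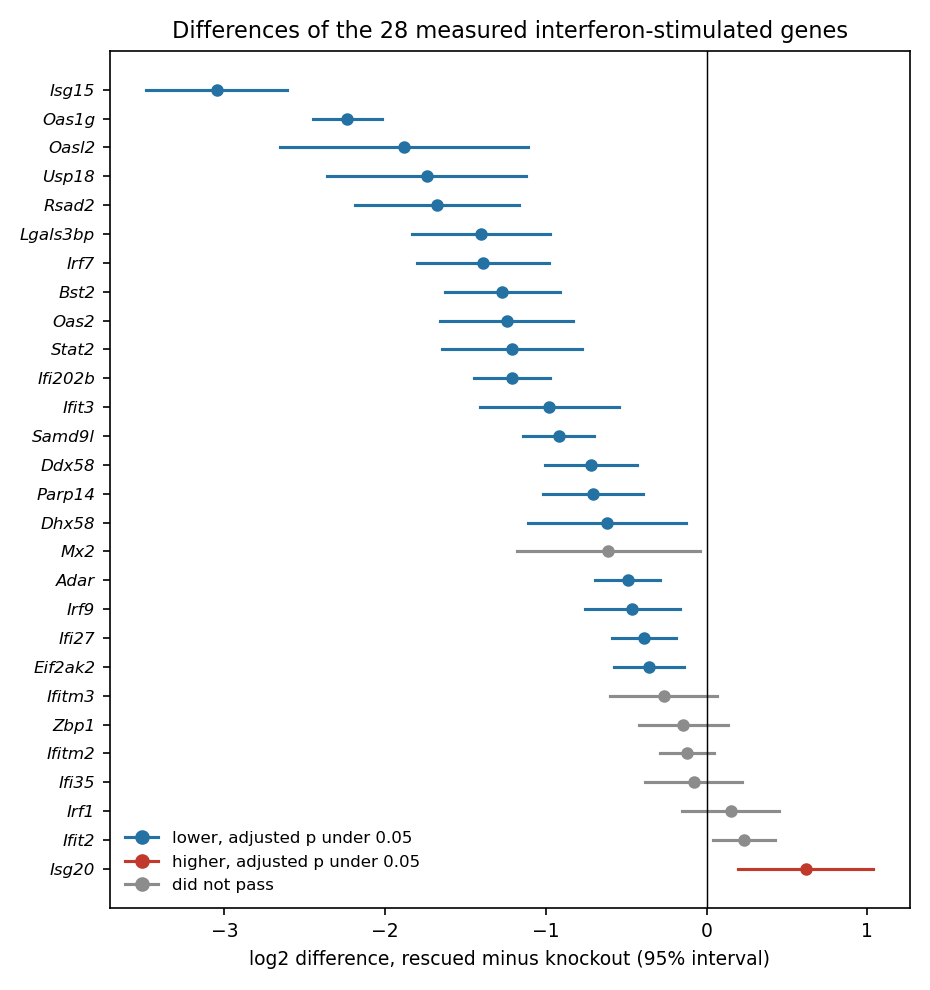
Log2 difference (rescued minus knockout) of each of the 28 measured members at its brightest probe, with 95% confidence intervals and colour by test result. Isg15 lies lowest at -3.05, and Isg20 is the only member that passed on the positive side, at 0.62.

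**Figure D2:**
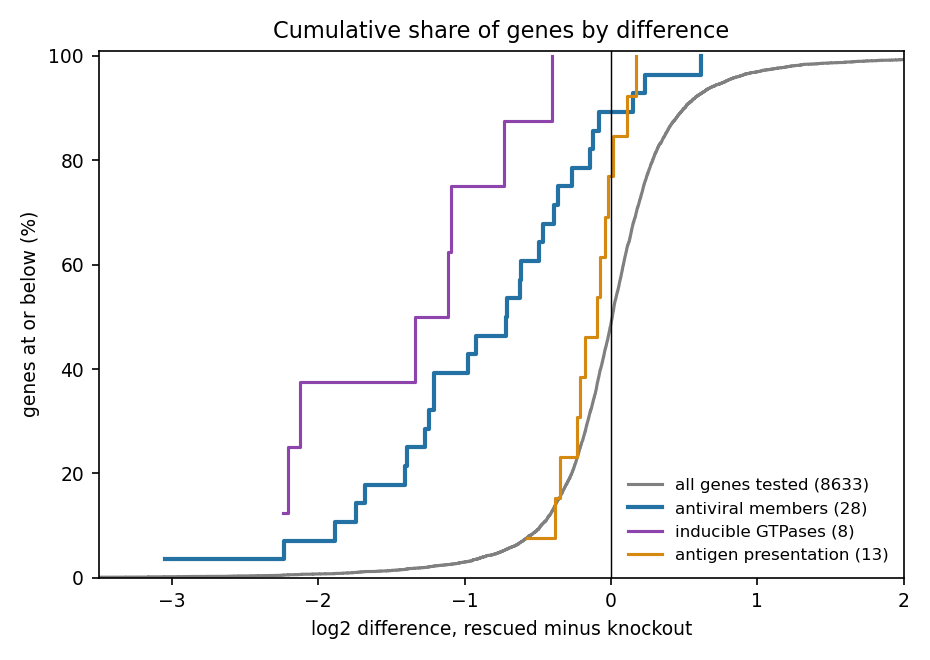
Cumulative share of genes against the log2 difference (rescued minus knockout) for the 28 measured members and for all 8633 measured genes. The member curve lies to the left, with a median of -0.71 against 0.01.

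The ISG15 system fell at both of its measured members. Isg15, the ubiquitin-like protein that is conjugated to viral and host proteins, stood at 10.53, 11.39, 10.61 and 10.51 on the 4 knockout arrays and at 7.53, 7.56, 7.92 and 7.84 on the 4 rescued arrays. Every knockout array lay well above every rescued array, and knockout replicate 2 was the highest. The means were 10.76 ± 0.42 and 7.71 ± 0.20 (SD, n = 4 each), a difference of -3.05 (SE 0.20, limma adjusted p = 4.78e-06). In raw intensity the knockout arrays read 1504, 3003, 1649 and 1325 and the rescued arrays 274, 267, 348 and 314, so the separation was present before any correction. Usp18, which removes ISG15 from proteins and restrains the interferon receptor, stood at 10.22, 11.19, 10.44 and 10.21 against 8.21, 8.53, 9.29 and 9.05. The groups did not overlap, and rescued replicates 3 and 4 stood above rescued replicates 1 and 2. Its difference was -1.74 (SE 0.27, limma adjusted p = 0.00105), and its 3 probes fell by between 1.87 and 1.66 on the log2 scale. Trim25, the ubiquitin ligase that activates the RNA sensor RIG-I, was not detected on any array. Ube2l6, the conjugating enzyme that passes ISG15 to its targets and not itself a member, fell by 0.72 (SE 0.08, limma adjusted p = 0.00012), from 8.45 ± 0.12 to 7.73 ± 0.06 (n = 4 each).

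**Figure D3:**
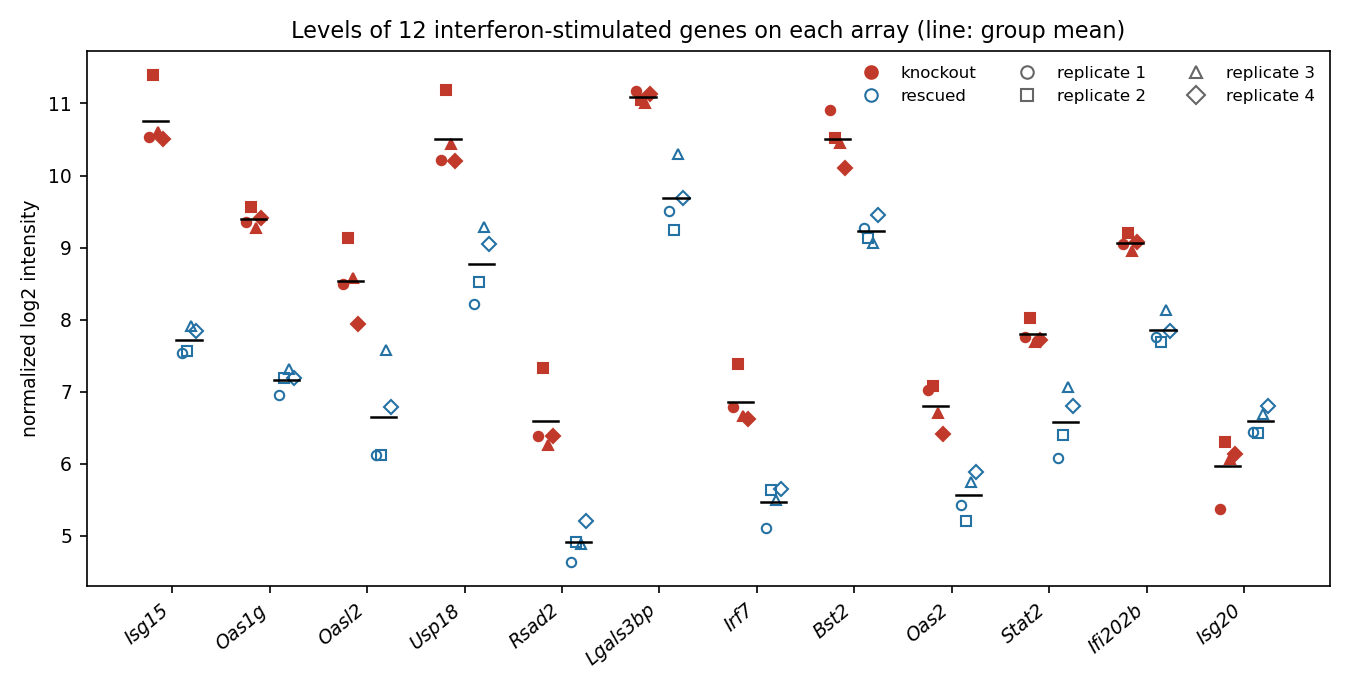
Normalized log2 intensity on each of the 4 knockout and 4 rescued arrays for the 11 members that fell at least 2-fold and for Isg20, with group means as lines, knockout filled and rescued open. The knockout points of Isg15 lie between 10.51 and 11.39 and the rescued points between 7.53 and 7.92.

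The oligoadenylate synthetases make a short nucleotide messenger that activates the antiviral nuclease RNase L when they meet double-stranded RNA, and all 3 members that were measured fell. Oas1g stood at 9.35, 9.56, 9.27 and 9.41 on the knockout arrays and at 6.96, 7.19, 7.32 and 7.18 on the rescued arrays. Both groups were tight and more than 2-fold of separation lay between their nearest arrays. The means were 9.40 ± 0.12 and 7.16 ± 0.15 (n = 4 each), a difference of -2.23 (SE 0.10, limma adjusted p = 4.32e-07). Of the 4 Oas1g probes 2 were measured, and the dimmer of them gave the same -2.23. The others were detected on no array. Oasl2, a synthetase-like protein with a ubiquitin-like part, stood at 8.50, 9.13, 8.58 and 7.94 against 6.12, 6.12, 7.58 and 6.79. Rescued replicate 3 came within 0.36 of the lowest knockout array, so the groups were close at that edge. Its difference was -1.89 (SE 0.34, limma adjusted p = 0.00225). The other Oasl2 probe was detected on 1 rescued array and no knockout array, and was not measured. Oas2 stood at 7.03, 7.08, 6.71 and 6.42 against 5.42, 5.20, 5.75 and 5.88, and it was detected on only 3 rescued arrays. The 2 groups did not overlap, and the difference was -1.24 (SE 0.18, limma adjusted p = 0.000718). Oas1a, Oas1b and Oas3 were detected on no array and Oasl1 on 1 rescued array. The Oas1 genes lie in a cluster of near-identical copies, and whether the Oas1g probes also read other copies was not tested because probe sequences were not used here.

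Of the transcription factors that carry the interferon signal to promoters, 3 of 4 measured members fell. Irf7, which amplifies interferon production, stood at 6.78, 7.38, 6.67 and 6.62 on the knockout arrays and at 5.10, 5.64, 5.50 and 5.65 on the rescued arrays, where it was detected on 3. The groups did not overlap, and the difference was -1.39 (SE 0.18, limma adjusted p = 0.000364). Stat2, a subunit of the ISRE-binding complex, stood at 7.75, 8.02, 7.70 and 7.71 against 6.08, 6.40, 7.06 and 6.81. The knockout arrays lay close together and above a wider rescued group, with a difference of -1.21 (SE 0.19, limma adjusted p = 0.00111). Irf9, which gives that complex its DNA binding, went from 9.88 ± 0.13 to 9.42 ± 0.26 (n = 4 each), a difference of -0.46 (limma adjusted p = 0.0201). Its second probe, at -0.32, did not pass. Irf1, which is induced mainly by interferon gamma, was at 9.79 ± 0.09 in knockout and 9.94 ± 0.29 in rescued cells, and its brightest probe did not pass (0.15, limma adjusted p = 0.410). The 4 measured Irf1 probes ranged from 0.15 to 0.54, and 1 of them passed as higher.

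Both measured RNA sensors fell, as did 2 of 3 effectors that bind double-stranded or Z-form nucleic acid. Ddx58, which encodes the sensor RIG-I, stood at 6.69, 7.17, 6.73 and 7.02 on the knockout arrays and at 6.17, 5.95, 6.36 and 6.25 on the rescued arrays. The groups did not overlap, and the difference was -0.72 (SE 0.13, limma adjusted p = 0.00194). Dhx58, encoding the related helicase LGP2, stood at 6.95 ± 0.34 and 6.33 ± 0.41 (n = 4 each), with overlapping groups, and its difference of -0.62 lay at the edge of the threshold (limma adjusted p = 0.0494). It did not pass without rescued replicate 1, 2 or 4 or without knockout replicate 1, 2 or 3. Ifih1, which encodes the third helicase of this family, MDA5, was not detected on any array. Adar, which edits adenosines in double-stranded RNA, stood at 7.51, 7.75, 7.48 and 7.44 against 7.07, 6.96, 7.003 and 7.20. Its difference was -0.49 (SE 0.09, limma adjusted p = 0.00232), and 2 of its 3 measured probes passed as lower. Eif2ak2, the kinase PKR that halts translation, fell by 0.36 from 12.33 ± 0.13 (limma adjusted p = 0.0157). Zbp1, a sensor of Z-form nucleic acid, differed by -0.14 and did not pass (limma adjusted p = 0.391).

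The IFIT proteins bind viral RNA caps and translation factors, and of their 2 measured members Ifit3 fell and Ifit2 did not pass. Ifit3 stood at 10.55, 11.15, 10.39 and 10.39 on the knockout arrays and at 9.43, 9.40, 10.01 and 9.73 on the rescued arrays. The groups did not overlap, the difference was -0.98 (SE 0.19, limma adjusted p = 0.00329), and its 3 probes fell by between 0.99 and 0.73. Ifit2, whose gene is on the same chromosome, 19, was at 9.91 ± 0.14 and 10.15 ± 0.08 (n = 4 each), a difference of 0.23 that did not pass (limma adjusted p = 0.0557). Without rescued replicate 3 or knockout replicate 2 it passed as higher, with adjusted p-values of 0.0380 and 0.0268. Ifit1 was not detected on any array. A near-identical copy, Ifit3b, exists in mouse, and its part in the Ifit3 signal was not tested. Mx2, one of the dynamin-like MX GTPases, stood at 5.69, 6.78, 5.80 and 5.84 against 5.31, 4.96, 5.74 and 5.65. Its groups overlapped and knockout replicate 2 stood apart from the other 3, and the difference of -0.61 did not pass (limma adjusted p = 0.0843). Mx1 was not detected on any array.

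Among the proteins that act at membranes, Bst2 fell and the 2 measured IFITM genes did not pass. Bst2, also called tetherin, holds budding viruses on the cell surface, and it stood at 10.91, 10.52, 10.46 and 10.11 on the knockout arrays and at 9.28, 9.13, 9.06 and 9.45 on the rescued arrays. The groups did not overlap, with means of 10.50 ± 0.33 and 9.23 ± 0.17 (n = 4 each) and a difference of -1.27 (SE 0.16, limma adjusted p = 0.000281). Ifitm3, which blocks fusion of viruses in endosomes, was bright in both groups, at 14.51 ± 0.07 and 14.25 ± 0.34 (n = 4 each, limma adjusted p = 0.187). Ifitm2 was at 13.65 ± 0.06 and 13.53 ± 0.11 (n = 4 each, limma adjusted p = 0.235). The brightest member signal on any array was 26420 raw units, against 65109 for the brightest probe of the array. Ifitm1 was not detected on any array.

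Rsad2, the radical-SAM enzyme viperin, stood at 6.39, 7.34, 6.26 and 6.39 on the knockout arrays and at 4.64, 4.92, 4.88 and 5.21 on the rescued arrays. Its rescued levels were near the lowest level of a detected probe, which was between 5.17 and 5.34 across arrays, so the difference of -1.68 (SE 0.23, limma adjusted p = 0.000437) rests on background-level signal in that group. Lgals3bp, a secreted glycoprotein that binds galectins, stood at 11.17, 11.05, 11.00 and 11.13 against 9.50, 9.24, 10.30 and 9.69. The knockout arrays were within 0.16 of each other and rescued replicate 3 was the highest of its group, with a difference of -1.40 (SE 0.19, limma adjusted p = 0.000454). Samd9l, an antiviral protein that restrains translation, stood at 11.89, 12.17, 12.03 and 12.005 against 11.06, 10.89, 11.26 and 11.20. These groups did not overlap either, and the difference was -0.92 (SE 0.10, limma adjusted p = 0.000107). Ifi27 was bright and fell by 0.39, from 13.68 ± 0.05 to 13.29 ± 0.17 (n = 4 each, limma adjusted p = 0.0074). It lies on chromosome 12, whose 281 measured genes had a median difference of -0.31, and with each chromosome's median set to 0 Ifi27 stood at -0.08 and did not pass (adjusted p = 0.374). Rsad2 lies on the same chromosome and kept its call. Isg15 and Ddx58 lie on chromosome 4 (median -0.19) and Adar on chromosome 3 (-0.15), while other chromosomes had medians of either sign. In that fit Isg15, Ddx58 and Adar stood at -2.85, -0.52 and -0.31 and passed. There 19 members fell, and the median member difference was -0.67.

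Ifi202b, a p200-family gene of the kind that binds DNA, stood at 9.04, 9.20, 8.95 and 9.08 on the knockout arrays and at 7.77, 7.69, 8.14 and 7.84 on the rescued arrays. The groups were tight and apart, with a difference of -1.21 (SE 0.11, limma adjusted p = 3.09e-05) and a second probe at -0.97. The remaining probe of the 3 for Ifi202b was detected on no array. The p200 genes are a cluster of close copies, and cross-reading between them was not tested. Its relatives Ifi204 and Ifi205 were not detected on any array. Parp14, an ADP-ribosyl transferase, stood at 9.01, 9.30, 8.86 and 8.67 against 8.19, 8.05, 8.46 and 8.31. Its groups did not overlap, and the difference was -0.71 (SE 0.14, limma adjusted p = 0.00326). Parp9, its binding partner in human cells, was not detected, nor was Xaf1. Rtp4 was detected on 1 rescued and 2 knockout arrays and was not measured.

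Isg20, an exonuclease that degrades RNA, was the only member that rose. It stood at 5.38, 6.31, 6.07 and 6.13 on the knockout arrays and at 6.45, 6.43, 6.69 and 6.80 on the rescued arrays. The groups did not overlap, but the highest knockout array lay within 0.12 of the lowest rescued array. The means were 5.97 ± 0.41 and 6.59 ± 0.18 (n = 4 each), a 1.53-fold higher level (difference 0.62, SE 0.19, limma adjusted p = 0.0271). Without background correction the difference was 0.27 and still passed. The call was lost without rescued replicate 3 (adjusted p = 0.0533) or without rescued replicate 4 (0.0714). Ifi35, which binds other interferon-induced proteins, differed by -0.08 (adjusted p = 0.674).

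Members tended to be high or low together on the same arrays within a group. Knockout replicate 2 was the highest knockout array for 22 of the 28 measured members and the lowest for none, while it was the highest for 24.0% of all genes. Knockout replicate 4 was the lowest for 13 members and for 28.9% of all genes. Among the rescued arrays, replicate 3 was the highest for 17 members and for 31.2% of all genes, and replicate 4 for 9 members and 21.1%. Rescued replicates 1 and 2 were the lowest for 11 and 15 members, and for 22.9% and 23.1% of all genes. The median deviation of members from their group mean was 0.20 on knockout replicate 2 and 0.19 on rescued replicate 3, against -0.17 on both rescued replicates 1 and 2. The median SD of members was 0.18 in knockout and 0.23 in rescued cells, against 0.10 and 0.14 over all genes. Without knockout replicate 2, 18 members and 15.9% of all genes fell. The differences of Isg15, Rsad2 and Usp18 were then -2.83, -1.42 and -1.52.

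**Figure D4:**
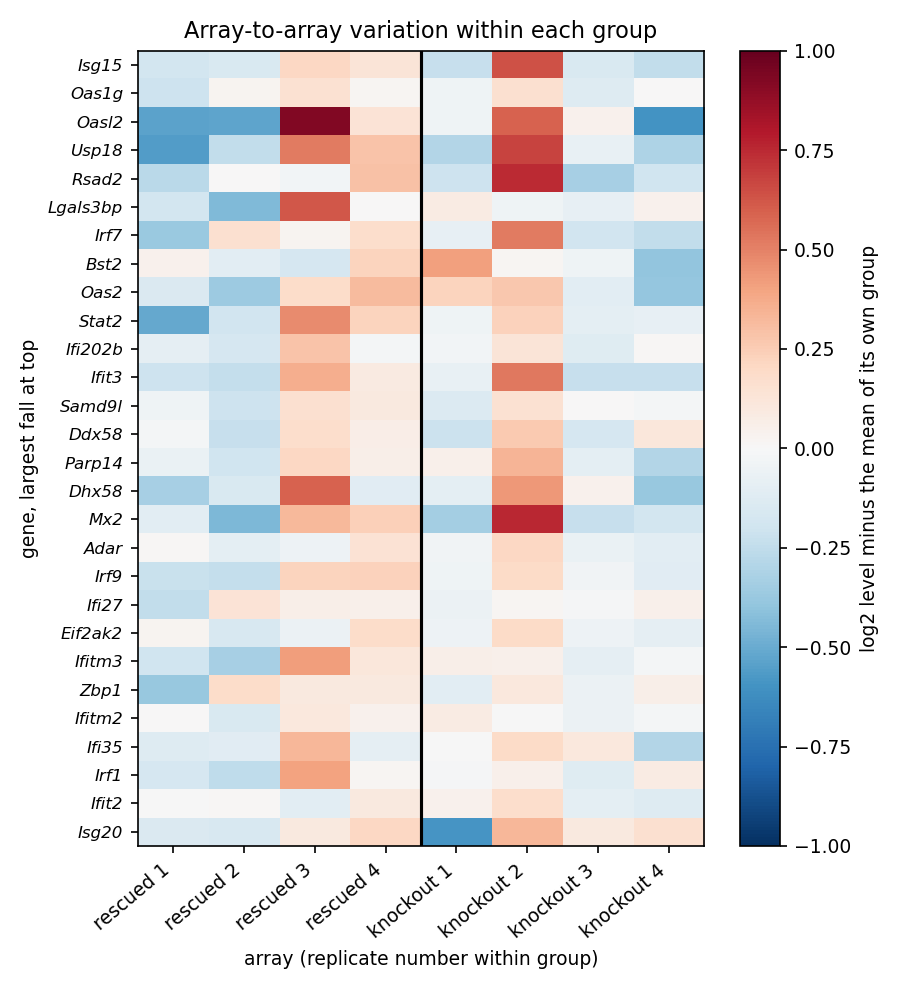
Deviation of each of the 28 measured members from its own group mean (log2) on each of the 8 arrays. Members sit mostly above their group mean on knockout replicate 2 (median 0.20) and rescued replicate 3 (median 0.19), and below it on rescued replicates 1 and 2 (median -0.17).

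Dim members depended on the background correction. Without it the difference was -0.68 for Rsad2, -0.60 for Irf7, -0.54 for Oas2 and -0.72 for Stat2, against -1.68, -1.39, -1.24 and -1.21 with it, and all still passed. Ddx58, Dhx58 and Isg20 stood at -0.35, -0.31 and 0.27 without it, against -0.72, -0.62 and 0.62 with it, and also passed. Isg15 stood at -2.58 and Oas1g at -1.68 without it.

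**Figure D5:**
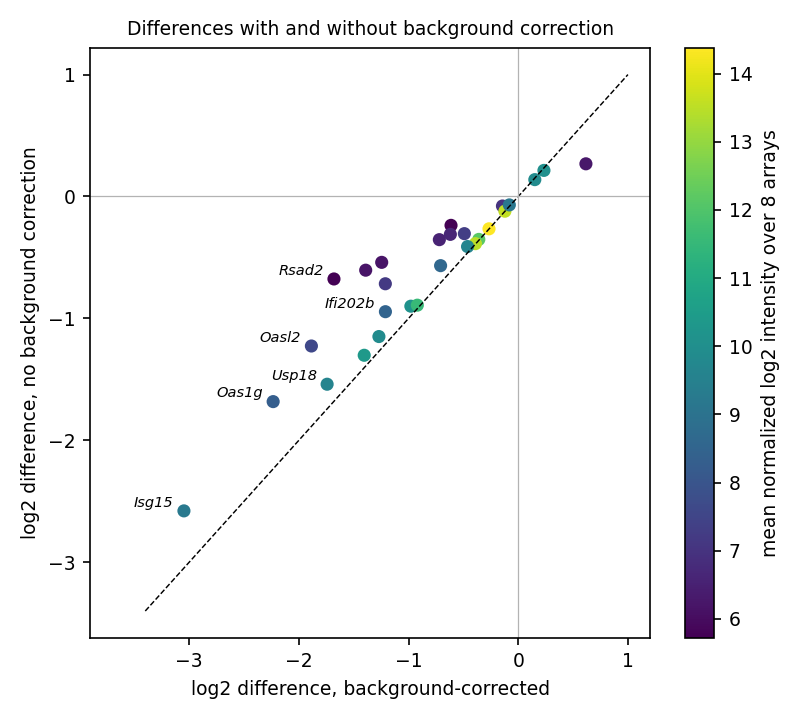
Log2 difference (rescued minus knockout) of each measured member with background correction (horizontal) and without it (vertical), with the line of equality and colour by mean log2 intensity. Rsad2 moves from -1.68 to -0.68 and Isg15 from -3.05 to -2.58.

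Upstream of the members, the interferon genes themselves gave little signal. Of 19 ligand genes on the array 3 were measured, Ifna1, Ifna6 and Ifnz, and none passed in limma or had an unadjusted p under 0.05. Ifnb1, the fibroblast-type interferon, and Ifng were detected on no array, and Ifne was detected on 3 rescued arrays. Of 8 measured receptor and JAK-STAT genes, 1 fell, 2 rose and 5 did not pass. The receptor subunit of lambda interferons, Ifnlr1, rose from 7.47 ± 0.21 to 8.38 ± 0.10 (n = 4 each), by 0.91 (limma adjusted p = 0.000195). Ifngr1, a gamma receptor chain, rose by 0.27 (adjusted p = 0.0146), and Il10rb, the partner of Ifnlr1, fell by 0.37 (adjusted p = 0.0205). Ifngr1 did not pass with each chromosome's median set to 0 (adjusted p = 0.0879) or with the replicate number as a block (0.0544). Il10rb did not pass without rescued replicate 2 (0.0526), knockout replicate 2 (0.0533) or knockout replicate 4 (0.0542), or with arrays scaled to a common median (0.0709). Of 13 measured genes listed for the induction of interferon, among them enzymes that remove DNA or nucleotides, 4 fell and 4 rose. Trex1, an exonuclease that clears cytosolic DNA, fell from 9.16 ± 0.05 to 8.42 ± 0.11 (adjusted p = 7.04e-05). Samhd1, which depletes nucleotides, fell by 0.97 (adjusted p = 0.000904), while Tbk1, the kinase of IRF3, rose by 0.35 (adjusted p = 0.00165). Of 12 measured negative regulators, 4 fell and 5 rose. Socs3, which inhibits JAK kinases, fell from 10.75 ± 0.02 to 9.25 ± 0.36 (n = 4 each, adjusted p = 8.12e-05), and its relative Cish rose by 0.85 (adjusted p = 1.97e-05).

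Other interferon-inducible genes outside the set were read in the same fit. All 8 measured interferon-inducible GTPases fell, with a median difference of -1.23. Among them Gbp7 was detected on 4 knockout and no rescued arrays. It was kept only through the group where it was high, and its level was at least 1.35-fold lower. Gvin1, a very large GTPase, fell from 11.08 ± 0.18 to 8.88 ± 0.20 (n = 4 each, limma adjusted p = 1.70e-06). Gbp2, a guanylate-binding protein, fell by 2.12 (adjusted p = 6.66e-06), and Igtp, a GTPase that acts on vacuoles of parasites, fell by 2.24 (adjusted p = 6.55e-05). Of 21 further interferon-inducible genes, 12 fell, 1 rose and 8 did not pass, with a median of -0.43. The RNA helicase Mov10 fell from 7.03 ± 0.05 to 5.78 ± 0.11 (adjusted p = 2.80e-06). Ccl5, a chemokine, was detected on 4 knockout and no rescued arrays and was at least 1.54-fold lower (adjusted p = 0.000243), while Pml, which builds nuclear bodies, rose by 0.52 (adjusted p = 0.000308). Of 13 measured antigen presentation genes 2 fell, a share near the 18.9% of all genes, the other 11 did not pass, and the median was -0.10.

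The array as a whole gave 12640 to 12873 detected probes on the rescued arrays and 12223 to 12427 on the knockout arrays, with median intensities from 108 to 118 units. Atp2b4 had 1 measured probe, at 5.51 ± 0.24 in knockout and 5.54 ± 0.22 in rescued cells (n = 4 each, limma adjusted p = 0.911). Its other 2 probes were detected on no array, and because the probes were not placed against the deletion or the cDNA, this does not check the labels. Of 10 smooth muscle markers 7 were measured. Acta2, smooth muscle actin, was very bright at 15.87 ± 0.06 and 15.83 ± 0.07, whereas Cnn1 and Lmod1, a calponin and a leiomodin, were detected on no array. Tagln, an actin-binding protein, fell by 1.43 (adjusted p = 0.000162), and Myocd, a coactivator of smooth muscle genes, rose by 1.70 (adjusted p = 0.000615), from 1 detected knockout array. Summed smooth muscle marker levels were 61282 to 68707 in rescued and 67827 to 72851 in knockout cells. These sums are of linear levels, so the brightest gene of a list weighs most, here Acta2. In the macrophage, endothelial and plasmacytoid lists below, the brightest by mean log2 level were Lyz1 (8.50), Eng (11.45) and Tcf4 (12.14). The sums are therefore no measure of the share of a cell type. Of 20 macrophage and leukocyte markers, 14 were detected on no array, among them Ptprc, Itgam and Adgre1, and the summed level of the list was 1242 to 1410 in rescued against 536 to 688 in knockout cells. Of the 6 measured, the lysozyme genes Lyz1 and Lyz2 and the receptor Cd14 rose, with log2 differences of 2.00, 2.14 and 0.90 (limma adjusted p = 9.51e-07, 2.42e-06 and 7.65e-05). Lyz2 was detected on only 1 knockout array, with a knockout mean of 5.17, so its difference rests on background-level signal in that group. The leukocyte tetraspanin Cd53 fell by 1.24 (limma adjusted p = 0.00039), the direction of most antiviral members. Coro1a and Aif1 did not pass. Of 14 endothelial markers, 4 of 6 measured rose, where 21.0% of all genes rose. Of those that rose, Vwf and Nos3 were detected on no knockout array and were kept only through the rescued arrays. Endothelial sums were 4513 to 6133 in rescued against 4093 to 4824 in knockout cells, and Pecam1 and Cdh5 were detected on no array. The plasmacytoid and lymphoid list, which contains Bst2 itself, summed to 4166 to 6194 in rescued against 5820 to 6981 in knockout cells, and 4 of its 10 genes, among them Cd3d and Cd79a, were detected on no array. The part of these cell types in the member differences was not tested.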

How the data were processed

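RNA from 8 samples, 4 rescued and 4 knockout, was read on Illumina bead arrays of 1 colour. The authors deposited, per the file headers, a non-normalized linear intensity and a detection p-value for each of 25697 probes and array. A second deposited table holds log2 values made in a way that the sources used here do not give. Its column medians were 5.17 to 5.18 and its largest gap to the values computed here was 0.0266, so it was on the same log2 scale, was not centred, and ran in the same direction.

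Intensities were background-corrected with neqc in limma 3.58.1 (R 4.3.3), which infers the negative-control distribution from the detection p-values, adds an offset of 16 and quantile-normalizes on the log2 scale. A probe with a detection p under 0.05 on at least 4 of 8 arrays was kept, which left 12658. Each gene is represented by its brightest kept probe, giving 8633 genes. Differences (rescued minus knockout) were fitted with lmFit and eBayes and called at a threshold of 0.05 after Benjamini-Hochberg adjustment across the kept probes. A lower bound is given where the dimmer group had no detected array. The brighter group's mean was then set against the dimmer group's mean of the higher of the lowest detected level and the probe's own.

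Quantile normalization removes any shift shared by most transcripts. With 4 arrays a group, their number limits the precision. Slides and scan dates are not in the files used here. The fit was also run on simulated arrays with independent noise for each probe. Those arrays hold no deviation shared by members, so that run cannot check the effect of such sharing on the calls. The platform annotation gave 1 symbol to 23978 probes, several to 0 and none to 1719. Promoter sequences came from RefSeq, GRCm38.p6. The members and the gene lists were chosen with earlier results of these data known. Values on every array are given for members past the threshold with at least a 2-fold difference, for members that rose, and for the member with the smallest p in each functional group. From each further list up to 4 genes with the smallest p were eligible to be named. Ligands and undetected members named besides were taken from the lists regardless of value. Acta2, Coro1a, Aif1, Gbp7 and Eng were added after their values were seen. Deviations of same-numbered arrays correlated between -0.08 and -0.00, so no shared deviation by replicate number was seen. That cannot exclude a pairing of the samples, on which the labels are silent, and the fit left the numbers out.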

Additional observations from a re-analysis of the deposited data

Results flagged for a closer look

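In 10 of 110 groups of 4 arrays, 1 array stood farther from the other 3 than Dixon's 95% critical value allows. Chance flags about 1 in 20 groups. Knockout replicate 2 was the high array for Isg15 at 11.39, where the other knockout arrays lay between 10.51 and 10.61, and for Rsad2 at 7.34 against 6.26 to 6.39. It was also high for Mx2, the MX GTPase, at 6.78 against 5.69 to 5.84, and for the kinase Eif2ak2 at 12.52 against 12.24 to 12.28. Rescued replicate 3 was the high array for Ifi35, at 9.44 against 8.98 to 9.02, and rescued replicate 1 the low one for Zbp1, at 6.54 against 7.01 to 7.11. Outside the set, knockout replicate 2 was high for the helicase Mov10 at 7.10 against 7.01, and knockout replicate 3 for Samhd1 at 10.22 against 10.07 to 10.08. Rescued replicate 4 was high for Gvin1 at 9.18 against 8.75 to 8.81, and rescued replicate 2 for the phosphatase gene Ptpn1 at 7.36 against 7.09 to 7.10. Without knockout replicate 2 the differences of Isg15 and Rsad2 were -2.83 and -1.42 and both still passed in limma.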

How the results depend on the processing

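Across 23 other settings no called member changed sign, and apart from the test for more than 1.5-fold, 16 of the 21 members that changed kept their call under every one in which they were measured (Irf7, Oas2 and Rsad2 were not when detection on all 8 arrays was required); Dhx58, Eif2ak2, Ifi27, Irf9 and Isg20 lost theirs under at least 1. The 20 members that fell became 9 when the test asked for more than 1.5-fold, where 2.59% of all genes fell. They became 17 at an adjusted p under 0.01, where 12.3% of all genes fell. With detection on all 8 arrays, 17 of 24 measured members fell. The called members missing there were Irf7, Oas2 and Rsad2, which were not measured. The number that fell ranged from 18 to 21 with each array left out. The 1 member that rose became 2 without background correction, with an offset of 50, with cyclic loess, with detection required on all 8 arrays or at p under 0.01, with a trended robust variance and with array weights, the addition being Ifit2. It became 0 at an adjusted p under 0.01 and with the 1.5-fold test, and ranged from 0 to 2 with each array left out. The median difference of -0.71 was -0.48 without background correction and -0.32 over 42 members without a detection filter, and ranged from -0.79 to -0.61 with each array left out. With the replicate number as a block, 19 members fell, 1 rose and the median stayed at -0.71; Eif2ak2 lost its call (adjusted p = 0.0521). Nothing in the labels says that equal numbers pair the samples, so that fit is not read as a paired design. Dhx58 passed with an adjusted p of 0.00542 without rescued replicate 3 and reached 0.123 at most. Irf9 was lost without rescued replicate 1 (0.0521), rescued replicate 2 (0.0511) or knockout replicate 2 (0.0568). Ifitm3 passed as lower with array weights (-0.35, adjusted p = 0.0379) and without rescued replicate 3 (-0.40, 0.0166). The cause of these changes was not tested. Low signal over background limits Rsad2, Irf7, Oas2 and Mx2. The sizes of the Isg20, Ddx58 and Dhx58 differences also depended on the background correction.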

Other observations

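The order of arrays within a group was also read for interferon-inducible genes outside the set. Knockout replicate 2 was the highest knockout array for 7 of the 8 measured interferon-inducible GTPases and for 12 of 21 further interferon-inducible genes, and for 5 of 13 antigen presentation genes. Rescued replicate 3 was the highest rescued array for 5 of the 8 GTPases, for 8 of the 21 further genes, where it was the lowest for 6, and for 7 of the 13 antigen presentation genes. Over all 8633 genes these arrays were the highest of their group for 24.0% and 31.2%. These are counts with no test, and genes on 1 array share its RNA.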
